A study of Mus musculus with 6 samples.

Results

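The genes described here are the well-counted protein-coding genes of RENCA cells that were lower when Aqp1 was overexpressed. A gene was a member when the deposited table gave it as protein-coding and not mitochondrially encoded, the mean of its 3 oe-NC counts was at least 50, its mean level in oe-AQP1 cells was at most 0.6 of that in oe-NC cells, and every oe-AQP1 sample lay below every oe-NC sample. Levels are given as CPM, the count of a gene divided by the total of its sample and multiplied by 1000000. Cdkn1a, Cdh1, Csf1r, Lox, Krt19 and the histone genes were left out by name. In all, 105 genes met the rule, out of 10519 well-counted protein-coding genes and 78298 genes in the table. The members were thus chosen by their measured CPM in the 6 samples, and because the rule read the same contrast that is described, the difference between the groups in these genes is given as a description with no test.

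RENCA cells are a mouse line derived from a renal adenocarcinoma. The oe-AQP1 cells carry a lentivirus with the mouse Aqp1 coding sequence, and the oe-NC cells carry the empty vector. Both groups were therefore transduced and kept under puromycin (2 μg/mL) over 14 days of selection, and no untransduced RENCA cells were analysed here. The labels speak of selecting stable clones and do not say how many clones either population held, so a difference between 2 transduced populations cannot be told apart from an effect of the insert. Each group had 3 samples, harvested at near confluence without further treatment. Whether they came from separate cultures is not given in the sources used here, and p-values then measure only the spread between these samples.

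AQP1 is a water channel that is abundant in the proximal tubule of the kidney. Basement membrane collagens and matrix proteins form the sheet on which tubule cells rest, and integrins hold the cells to it. Hypoxia-inducible factors switch on a set of genes for glucose uptake, glycolysis and mitophagy when the oxygen-sensing hydroxylases are inactive. BMP signals switch on the ID genes, which block basic helix-loop-helix transcription factors, and the inhibitory SMADs, which dampen the signal.

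Aqp1 itself checked the labels: it had 7713, 8545 and 7838 counts with oe-AQP1 against 41, 25 and 45 with oe-NC, a difference of log2FC = 7.70 ± 0.16 (SE, FDR = 1.34e-10 in limma-voom). FDR is the Benjamini-Hochberg adjusted p-value over all 15522 genes tested, and log2FC is the log2 fold change of oe-AQP1 over oe-NC. Counts are given after rounding, since some were fractional. Sample totals were 18385714 to 21920899 counts. Sample oe-NC 1 stood apart from the other 2 controls: the mean chi-square per gene was 9.82 and 11.4 against them, while pairs within a group otherwise gave 1.71 to 2.03, where counting error alone gives about 1. Across the 10519 well-counted genes its deviation from the other controls followed GC content (Pearson's r = 0.609 across genes, which are not independent replicates). Members were richer in GC than well-counted genes in general, with medians of 52.7% and 49.4%, and 55 of the 105 had their highest control value in oe-NC 1 (52.4%, against 43.8% of other well-counted genes). The 102 genes that met the rule without oe-NC 1 had a median GC content of 52.2%. Across well-counted genes log2FC correlated with GC content at Pearson's r = -0.152 with all samples and -0.058 without oe-NC 1. The part of this sample in the results was not tested, and further values without it are given below. Mitochondrially encoded genes took 2.37 to 2.99% of control counts and 1.71 to 1.76% with oe-AQP1. Of 18 macrophage markers, 9 had at most 3 counts in every sample, Adgre1, C1qa, C1qb, C1qc and Tyrobp having none. Their summed level was 64.8 to 67.9 CPM with oe-AQP1 and 72.4 to 76.8 CPM with oe-NC, most of it Cd68, Lyz2 and Cd14. The lymphocyte markers summed to 23.6 to 25.6 CPM with oe-AQP1 and 17.4 to 20.8 CPM with oe-NC, most of it Lck, 7 of 10 with at most 3 counts everywhere. Fibroblast markers, of which Col1a1 is a member, summed to 57.0 to 59.2 and 51.7 to 65.4 CPM, most of it Pdgfrb. Among these markers 6 of 10 had at most 3 counts everywhere, with Col3a1 and Dcn near 0. Pdgfrb had 893, 967 and 924 counts with oe-AQP1 against 767, 617 and 714 with oe-NC. It was called higher (log2FC = 0.34, FDR = 0.00284 in limma-voom). Endothelial markers summed to at most 6.69 CPM, and Kdr, Cldn5 and Emcn were at 0. The 12 renal epithelial markers, which include the member Lrp2, summed to 856 to 886 CPM with oe-AQP1 and 1039 to 1146 CPM with oe-NC, Pax8, Krt8, Krt18 and Cdh16 among the well-counted ones, while Epcam had no counts. In bulk RNA, fewer expressing cells and less RNA per cell cannot be told apart.

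The set was small and its differences moderate. The members are 0.998% of the well-counted protein-coding genes, and the same rule turned round gave 391 genes that were higher (3.69% of 10585). The median member had 0.526 of its oe-NC level in oe-AQP1 cells, within limits of 0.258 and 0.60. Only 38 of the 105 were under 0.5 and 13 under 0.4. On the log2 scale the median was -0.94, between -1.96 and -0.73, beside a median of -0.02 over all well-counted genes. The higher genes went much further: their median fold was 2.70 against 1.90 for the members, and 121 of them exceeded the 3.88-fold difference of Vwa1, the widest in the set. Complete separation of the groups is in itself common in these data, since 28.7% of well-counted genes had every oe-AQP1 value below every oe-NC value. Together the members took 0.455 to 0.487% of all control counts and 0.239 to 0.240% with oe-AQP1.

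**Figure D1:**
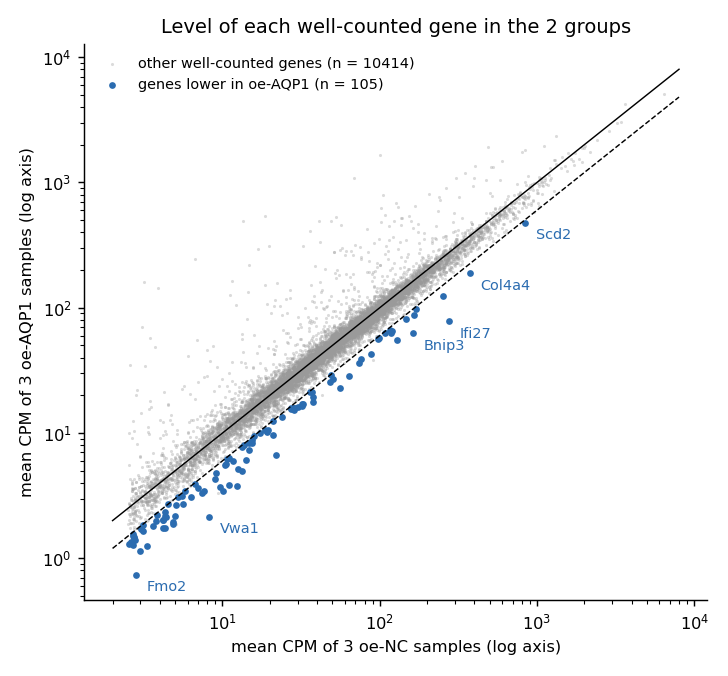
Mean CPM of each well-counted protein-coding gene in the 3 oe-NC samples (horizontal, log axis) and the 3 oe-AQP1 samples (vertical, log axis). The solid line marks equal levels and the dashed line a ratio of 0.6. The 105 members (blue) lie on or below the dashed line, as the rule requires, from 2.56 CPM to the 841 CPM of Scd2.

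Sample by sample, the median member stood at 51, 53 and 52% of its oe-NC mean in oe-AQP1 samples 1 to 3, and at 102, 99.3 and 98% in oe-NC samples 1 to 3. The coefficient of variation within a group had a median of 6.73% in oe-AQP1 and 6.91% in oe-NC cells. The lowest control exceeded the highest oe-AQP1 sample by 1.15 times in Mturn, where the groups were closest, and by 3.35 times in Fmo2, where they were farthest apart. Most members were modestly counted: 29 had a mean of under 100 counts in oe-NC samples, 40 had 100 to 500, 15 had 500 to 1000 and 21 had at least 1000. Without oe-NC 1, 93 members still had a ratio of at most 0.6 and the median ratio was 0.537. The other 12 were Dclk3, Epha8, Smad6, Mapt, Mturn, St6galnac2, Depp1, Pccb, Reps2, Phospho1, Col1a1 and Sult2b1, and the highest of them was Col1a1 at 0.675.

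Among the 12 genes with the lowest ratios, the lowest was Vwa1, a von Willebrand factor A domain protein of basement membranes, with 47, 45 and 40 counts with oe-AQP1 against 163, 129 and 204 with oe-NC. Its ratio was 0.258, or log2FC = -1.96 ± 0.18 (SE), and the controls were spread more widely (coefficient of variation 15.2%) than those of most members. Fmo2, a flavin-containing monooxygenase that oxidizes drugs and other small molecules, had 13, 17 and 16 counts with oe-AQP1 against 59, 53 and 56 with oe-NC (ratio 0.261, log2FC = -1.91). Ifi27 was the best-counted gene of the 12, with 1576, 1697 and 1555 counts with oe-AQP1 against 5034, 5188 and 6145 with oe-NC. Its level was 77.7 ± 1.91 CPM in oe-AQP1 and 275 ± 17.7 CPM in oe-NC cells (mean ± SD, n = 3), a ratio of 0.283. The name of Ifi27 records that interferon alpha induces it, yet it was lower here, while all 45 genes of a list of interferon-stimulated genes were called higher in oe-AQP1 cells (FDR under 0.05 in limma-voom, beside 16% of all genes tested). That list was chosen with earlier results of these data known, so its share is a description only. Its relative Ifi27l2a overlaps it on chromosome 12, where GENCODE M39 on GRCm39 gives 103392254 to 103407799 for Ifi27 and 103399975 to 103409950 for Ifi27l2a. Reads of the shared stretch may have been assigned to either gene, and both values are uncertain to that extent. Ifi27l2a had 315, 329 and 318 counts with oe-AQP1 against 49, 60 and 95 with oe-NC and rose (log2FC = 2.20 ± 0.16 SE, FDR = 3.97e-06 in limma-voom).

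Otog, which encodes otogelin, a protein known from the membranes over inner ear hair cells, had 143, 144 and 129 counts with oe-AQP1 against 461, 392 and 448 with oe-NC (ratio 0.307). Chrna1, the alpha subunit of the muscle acetylcholine receptor, had 71, 91 and 76 counts with oe-AQP1 against 232, 233 and 270 with oe-NC (ratio 0.309). Spata20 had 61, 77 and 78 counts with oe-AQP1 against 208, 179 and 209 with oe-NC (ratio 0.347). In these 3 genes every oe-AQP1 CPM was below 0.5 of the lowest control CPM. Kcne1, an accessory subunit of potassium channels, had 86, 86 and 69 counts with oe-AQP1 against 230, 198 and 231 with oe-NC (ratio 0.351). Ccdc198 had 21, 28 and 23 counts with oe-AQP1 against 56, 57 and 66 with oe-NC (ratio 0.384), and Scn3a, a voltage-gated sodium channel, had 76, 78 and 77 counts with oe-AQP1 against 188, 166 and 225 with oe-NC (ratio 0.384). Nos2, Ankrd37 and Bnip3 complete the 12 and are described with the hypoxia genes.

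**Figure D2:**
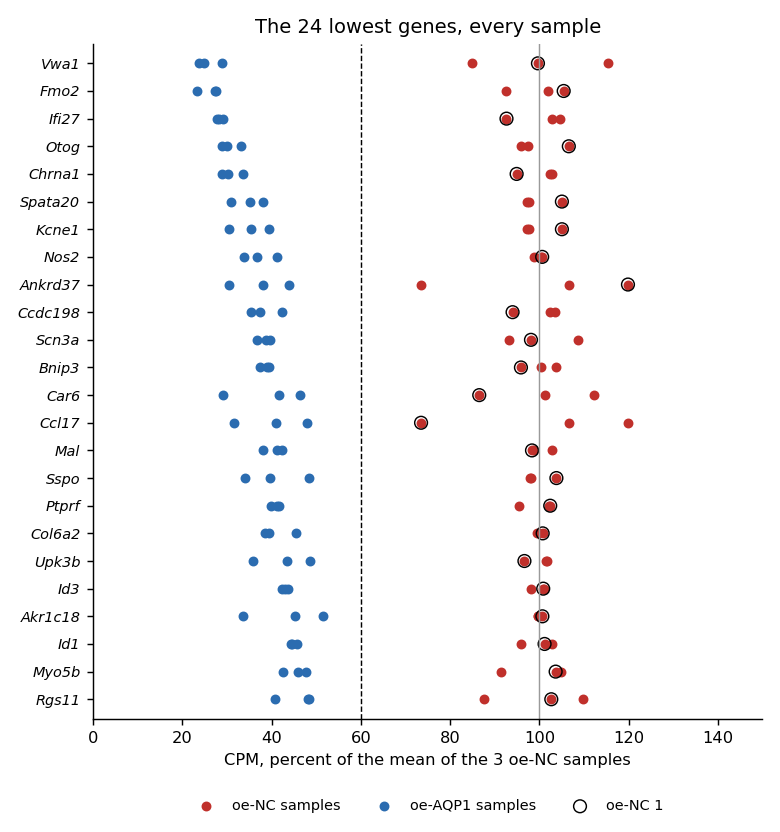
CPM of the 24 members with the lowest ratio in each sample, as a percent of the mean of the 3 oe-NC samples (horizontal). Blue points are oe-AQP1 samples, red points oe-NC samples, circled points oe-NC 1, and the dashed line marks 60%. The oe-AQP1 points lie left of the line in all 24 genes, a place largely set by the rule and by the choice of the lowest ratios. The control points of Vwa1, Ankrd37, Car6 and Ccl17 are spread most widely.

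By mean CPM in oe-NC cells the highest members included Scd2, Col4a4, Ifi27, Lrp1, Galc, Bnip3 and Epn3. Scd2, a stearoyl-CoA desaturase that makes monounsaturated fatty acids, led with 9356, 10509 and 9878 counts with oe-AQP1 against 16792, 15496 and 17769 with oe-NC. That was 479 ± 4.61 and 841 ± 9.23 CPM (mean ± SD, n = 3), a ratio of 0.569 with little spread among replicates. Lrp1, a large endocytic receptor, had 2510, 2682 and 2547 counts with oe-AQP1 against 5748, 4344 and 5041 with oe-NC (ratio 0.490), with oe-NC 1 the highest control. Galc, the lysosomal galactosylceramidase, had 1946, 2121 and 2045 counts with oe-AQP1 against 3265, 3152 and 3670 with oe-NC (ratio 0.581). Epn3, an epsin of clathrin-coated pits, had 1592, 1814 and 1644 counts with oe-AQP1 against 3391, 2584 and 2791 with oe-NC (ratio 0.551), again with oe-NC 1 on top. Per kilobase of exon the order differed: Scd2 stood first at 112 CPM per kb, with Id3 at 71.7, Ifi27 at 61.6, Bnip3 at 37.4 and Id1 at 35.8 among the next. The lowest was Trpm3, a cation channel, at 0.104 CPM per kb.

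Many members encode proteins of the matrix and basement membrane. Col4a3 and Col4a4 encode the collagen IV chains that, with that of Col4a5, form the mature glomerular basement membrane. The genes are transcribed away from each other on chromosome 1. In GENCODE M39 on GRCm39 Col4a4 spans 82426144 to 82564800 on the minus strand and Col4a3 spans 82564642 to 82699780 on the plus strand, so that their annotated starts overlap by 159 bases. A strand-specific counting is not stated, so reads of that stretch cannot be assigned with certainty. Col4a4 had 3665, 4077 and 3929 counts with oe-AQP1 against 8129, 6743 and 7386 with oe-NC. Col4a3 had 811, 931 and 894 counts with oe-AQP1 against 1843, 1578 and 1809 with oe-NC, in part fractional counts. Their ratios were 0.502 and 0.483, and the log2FC values, -1.0 ± 0.06 and -1.06 ± 0.05 (SE), lie close to each other. The other collagen IV pair did not follow. Col4a1 had 172, 182 and 136 counts with oe-AQP1 against 207, 144 and 194 with oe-NC (log2FC = -0.23, FDR = 0.238 in limma-voom), and Col4a2 had 162, 179 and 170 counts with oe-AQP1 against 152, 123 and 126 with oe-NC (log2FC = 0.28, FDR = 0.0809 in limma-voom). Col4a5 and Col4a6 had at most 3 counts in any sample.

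Among the fibrillar and microfibrillar collagens, Col6a2 had 32, 42 and 34 counts with oe-AQP1 against 84, 77 and 90 with oe-NC (ratio 0.411), and its neighbour Col6a1, a chain of the same trimer, had 349, 330 and 301 counts with oe-AQP1 against 570, 493 and 562 with oe-NC (ratio 0.579). Col6a3, the third chain, had 8, 10 and 10 counts with oe-AQP1 against 17, 17 and 14 with oe-NC, too few for the rule, and its log2FC of -0.81 gave an FDR of 0.0589 in limma-voom. Col1a1 had 246, 265 and 267 counts with oe-AQP1 against 509, 361 and 374 with oe-NC (ratio 0.598), where oe-NC 1 was well above the other controls and the ratio without it was 0.675. Its partner chain Col1a2 had 12 to 19 counts in every sample (log2FC = -0.11, FDR = 0.825 in limma-voom). Tnc, tenascin C, an adhesion-modulating glycoprotein, had 1243, 1386 and 1242 counts with oe-AQP1 against 2407, 2141 and 2472 with oe-NC, a ratio of 0.528 with narrow replicates. Hspg2, which encodes perlecan, the heparan sulfate proteoglycan of basement membranes, had 79, 99 and 118 counts with oe-AQP1 against 200, 145 and 196 with oe-NC (ratio 0.526).

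The list of matrix proteins, from which Col6a2, Col6a1, Col1a1, Tnc and Hspg2 come, held 38 tested genes outside the members. An FDR under 0.05 in limma-voom was reached by 23 as lower and by 3 as higher, with a median log2FC of -0.33, beside 16.6% called lower and 16% called higher over all genes. Lama5, the laminin alpha 5 chain, had 7790, 8617 and 7917 counts against 14934, 10987 and 12618 in oe-NC (log2FC = -0.73 ± 0.08 SE, limma-voom FDR = 9.58e-05), and Col5a2 had 9, 15 and 19 counts against 35, 32 and 46 in oe-NC (log2FC = -1.48 ± 0.28 SE, limma-voom FDR = 0.00243). The opposite direction was seen in Ltbp1, a latent TGF-beta binding protein, which had 208, 242 and 249 counts against 55, 40 and 47 in oe-NC (log2FC = 2.22 ± 0.15 SE, limma-voom FDR = 1.67e-06), and in Fbn1, fibrillin 1, which had 144, 170 and 137 counts against 109, 104 and 110 in oe-NC (log2FC = 0.40 ± 0.11 SE, limma-voom FDR = 0.0171). Fbn1 was called in 11 of the 16 alternative fits. Without oe-NC 1 the list gave 21 lower and 5 higher (55.3% and 13.2%), beside 20.7% and 19.4% of all genes tested in that fit.

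Further secreted and matrix-bound members were Sspo, SCO-spondin (0.406), Megf6 (0.482), Ntn4, netrin 4 (0.517), Optc, opticin (0.547), Pcolce2, an enhancer of procollagen C-proteinase (0.589), Htra3, a secreted serine protease (0.579), Wfdc1 (0.573) and Thsd7a, a thrombospondin type I domain protein (0.531), the values being ratios of oe-AQP1 to oe-NC CPM. Of matrix proteases, Adam19, a membrane-bound metalloprotease, had 56, 63 and 46 counts with oe-AQP1 against 94, 88 and 123 with oe-NC (ratio 0.520). Outside the members 14 of 30 listed proteases and inhibitors were called lower and 5 higher. That is 46.7% and 16.7%, beside 16.6% and 16% of all genes tested. Timp2, a tissue inhibitor of metalloproteinases, had 5948, 6708 and 6270 counts against 8764, 7642 and 8929 in oe-NC (log2FC = -0.49 ± 0.04 SE, limma-voom FDR = 4.53e-06), and Prss23 had 1240, 1430 and 1342 counts against 1779, 1563 and 1830 in oe-NC (log2FC = -0.44 ± 0.04 SE, limma-voom FDR = 4.35e-05). Timp3 went the other way with 44, 31 and 48 counts against 29, 18 and 14 in oe-NC (log2FC = 0.96 ± 0.32 SE, limma-voom FDR = 0.0449), as did the serine protease Tmprss2 with 33, 28 and 26 counts against 16, 11 and 11 in oe-NC (log2FC = 1.10 ± 0.27 SE, limma-voom FDR = 0.0113). The call of Timp3 was lost in 5 of the 16 alternative fits.

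Integrin chains are the receptors for these proteins. Itgb4, the laminin-binding beta chain of hemidesmosomes, had 174, 183 and 164 counts with oe-AQP1 against 354, 273 and 294 with oe-NC (ratio 0.541). Itga1, which with beta 1 binds collagen, had 1188, 1375 and 1337 counts with oe-AQP1 against 2085, 1999 and 2333 with oe-NC (ratio 0.582). Itgb6, which with alpha V activates latent TGF-beta, had 42, 40 and 50 counts with oe-AQP1 against 87, 83 and 91 with oe-NC (ratio 0.486). Of 33 other integrins and adhesion molecules tested, 16 were called lower (48.5%) and 3 higher (9.09%), beside 16.6% and 16% of all genes. Itga7, a laminin receptor chain, had 2172, 2312 and 2252 counts against 3774, 3051 and 3544 in oe-NC (log2FC = -0.69 ± 0.06 SE, limma-voom FDR = 1.20e-05), and Bcam, which binds laminin alpha 5, had 368, 383 and 352 counts against 653, 480 and 537 in oe-NC (log2FC = -0.66 ± 0.11 SE, limma-voom FDR = 9.40e-04). Sdc3, syndecan 3, had 168, 213 and 192 counts against 83, 80 and 74 in oe-NC (log2FC = 1.20 ± 0.12 SE, limma-voom FDR = 5.29e-05), and Vcam1, an adhesion molecule for leukocytes, had 324, 412 and 318 counts against 168, 184 and 222 in oe-NC (log2FC = 0.80 ± 0.11 SE, limma-voom FDR = 2.85e-04). Both of these rose, with every oe-AQP1 sample above every control.

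The list of glycolysis and hypoxia target genes held 6 members. Bnip3, a mitophagy receptor of the mitochondrial outer membrane, had 1246, 1327 and 1307 counts with oe-AQP1 against 3066, 3080 and 3473 with oe-NC. This was 62.5 ± 1.73 CPM in oe-AQP1 and 162 ± 6.32 CPM in oe-NC cells (mean ± SD, n = 3), a ratio of 0.387 and log2FC = -1.38 ± 0.05 (SE). Ankrd37, an ankyrin repeat protein, had 20, 32 and 26 counts with oe-AQP1 against 79, 45 and 76 with oe-NC, a ratio of 0.375 on few counts and with wide controls. Nos2, the inducible nitric oxide synthase, had 96, 98 and 112 counts with oe-AQP1 against 264, 241 and 285 with oe-NC, a ratio of 0.372 with narrow controls. Aldoc, an aldolase of glycolysis, had 522, 625 and 523 counts with oe-AQP1 against 1040, 876 and 1087 with oe-NC (ratio 0.533). Pdk1, the kinase that turns off pyruvate dehydrogenase, had 427, 462 and 428 counts with oe-AQP1 against 644, 721 and 792 with oe-NC (ratio 0.585), with oe-NC 1 the lowest control. Egln1, the oxygen-sensing prolyl hydroxylase PHD2 that marks HIF-1 alpha for degradation and is itself a HIF target, had 1080, 1271 and 1178 counts with oe-AQP1 against 2033, 1827 and 1921 with oe-NC (ratio 0.583). Slc2a1, the glucose transporter GLUT1, was on the list of solute carriers and had 1093, 1273 and 1177 counts with oe-AQP1 against 2049, 1744 and 2076 with oe-NC (ratio 0.578).

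The promoters of 4 of these genes hold ACGTGC, the core letters of many hypoxia response elements, searched on both strands. Aldoc and Pdk1 have windows without these letters, and no window was at hand for Nos2. They are shown because the text groups these genes as hypoxia genes, a grouping made after the rule had chosen each gene as lower. The stretches lie upstream of the RefSeq transcription start on GRCm38.p6, with the core in capitals (GCACGTGC holds it on both strands). The Bnip3 stretch is chr7:138909586-138909637 on the minus strand, with its core 109 bases before the start. That of Ankrd37 is chr8:46000064-46000100 on the minus strand, with the core 241 bases before the start. For Egln1 it is chr8:124949295-124949344 on the minus strand, with the core 68 bases before the start, and for Slc2a1 chr4:119108687-119108736 on the plus strand, with the core 36 bases before the start.
Bnip3: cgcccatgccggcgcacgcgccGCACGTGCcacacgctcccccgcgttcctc
Ankrd37: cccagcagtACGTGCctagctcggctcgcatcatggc
Egln1: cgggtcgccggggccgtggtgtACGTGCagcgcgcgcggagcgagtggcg
Slc2a1: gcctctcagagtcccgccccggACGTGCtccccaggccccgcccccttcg
Windows of 250 bases before to 50 bases after a RefSeq start were at hand for 73 of the 105 members, in 92 windows. The core was found in 10 of these windows (10.9%), beside 8.44% of the windows of well-counted genes and 5.91% of all 32851 windows. The other 6 genes were Adam19, Car6, Chrna1, Epha8, Phospho1 and Sema4d. A match is a description of letters and no evidence of binding.

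Of the 45 tested genes of the hypoxia list outside the members, 28 were called lower, 2 higher and 15 neither (limma-voom), and the median log2FC was -0.27. The shares called were 62.2% and 4.44%, beside 16.6% and 16% of all genes tested. Ldha, lactate dehydrogenase A, had 11664, 12740 and 11941 counts against 18720, 17331 and 20643 in oe-NC (log2FC = -0.71 ± 0.03 SE, limma-voom FDR = 3.41e-08), and Ero1a, an oxidase of the endoplasmic reticulum, had 12457, 14261 and 13396 counts against 18556, 19960 and 22719 in oe-NC (log2FC = -0.68 ± 0.05 SE, limma-voom FDR = 4.54e-06). Pfkfb3, a bifunctional enzyme that promotes glycolysis, rose, with 5034, 5565 and 5135 counts against 4234, 3647 and 4124 in oe-NC (log2FC = 0.32 ± 0.04 SE, limma-voom FDR = 3.94e-04), and so did Fbp2, a fructose bisphosphatase, with 86, 100 and 72 counts against 47, 48 and 64 in oe-NC (log2FC = 0.62 ± 0.16 SE, limma-voom FDR = 0.0165). The call of Fbp2 was lost in 3 of the 16 alternative fits. The transcript of the oxygen-regulated factor itself, Hif1a, had 6020, 6808 and 6550 counts with oe-AQP1 against 5809, 6137 and 6960 with oe-NC (log2FC = -0.04, FDR = 0.603 in limma-voom), and that of its partner Arnt gave log2FC = 0.04 (FDR = 0.513 in limma-voom). Epas1, which encodes HIF-2 alpha, had at most 1 count in any sample. Without oe-NC 1 the list gave 30 lower and 2 higher (66.7% and 4.44%), beside 20.7% and 19.4% of all genes tested in that fit.

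**Figure D3:**
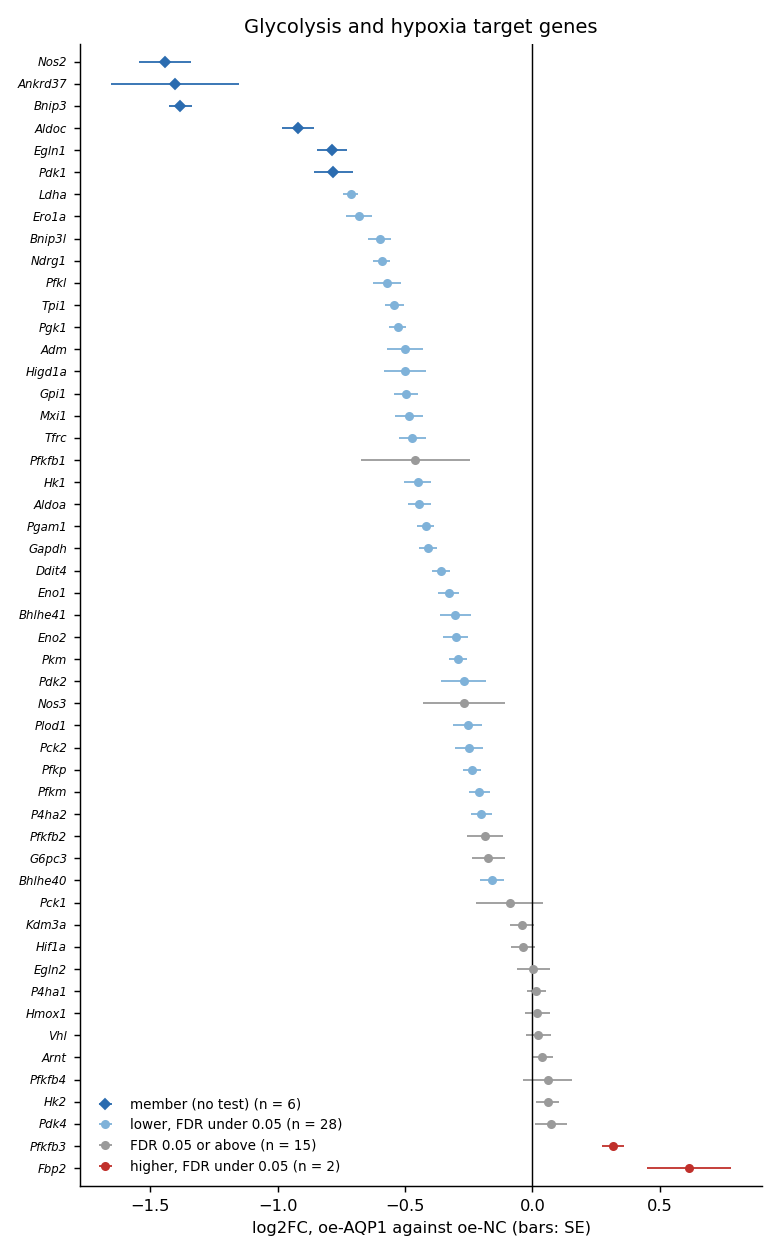
The log2FC of oe-AQP1 against oe-NC (horizontal) for the 6 members (diamonds) and 45 other genes of the glycolysis and hypoxia list, with the SE as bars. The place of the 6 members at the left is set by the rule that chose them. Of the 45 others 28 were called lower, and Pfkfb3 and Fbp2 were called higher.

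The TGF-beta and BMP list held 5 members, Id3, Id1, Smad6, Tgfbr3 and Hgfac. Id3 had 1090, 1229 and 1112 counts with oe-AQP1 against 2564, 2385 and 2697 with oe-NC, a level of 55.2 ± 0.869 and 128 ± 2.08 CPM (mean ± SD, n = 3) and a ratio of 0.430. Id1 had 559, 619 and 595 counts with oe-AQP1 against 1273, 1202 and 1306 with oe-NC, 28.5 ± 0.465 and 63.6 ± 2.26 CPM and a ratio of 0.449. The coefficient of variation in oe-AQP1 and oe-NC cells was 1.58% and 1.62% for Id3, and 1.63% and 3.56% for Id1. Smad6, the inhibitory SMAD of BMP receptors, had 430, 476 and 419 counts with oe-AQP1 against 941, 608 and 664 with oe-NC (ratio 0.573), but oe-NC 1 was far above the other controls and without it the ratio was 0.665. Tgfbr3, the co-receptor betaglycan, had 36, 47 and 24 counts with oe-AQP1 against 57, 57 and 68 with oe-NC (ratio 0.561). Hgfac was on the same list with 84, 95 and 88 counts with oe-AQP1 against 179, 157 and 196 with oe-NC (ratio 0.482), although it encodes the activator of hepatocyte growth factor and is no gene of this pathway. Id2 also fell, with 72, 72 and 67 counts against 111, 95 and 109 in oe-NC (log2FC = -0.65 ± 0.12 SE, limma-voom FDR = 0.00285), and Smad7 had 764, 879 and 781 counts with oe-AQP1 against 1123, 909 and 931 with oe-NC (log2FC = -0.36, FDR = 0.0111 in limma-voom). Id4 had no counts. The list as a whole was not one-sided, since of its 40 genes outside the members 6 were called lower and 5 higher, which is 15.0% and 12.5%, near the 16.6% and 16% of all genes tested. Fstl3, a follistatin-like antagonist, had 1280, 1395 and 1334 counts against 1744, 1607 and 1780 in oe-NC (log2FC = -0.43 ± 0.04 SE, limma-voom FDR = 4.56e-05). Fstl1 had 116, 135 and 122 counts against 81, 69 and 61 in oe-NC (log2FC = 0.76 ± 0.15 SE, limma-voom FDR = 0.00291) and Eng, the endothelial co-receptor endoglin, 5376, 6101 and 5544 counts against 3860, 3150 and 3605 in oe-NC (log2FC = 0.61 ± 0.05 SE, limma-voom FDR = 1.65e-05). The transcripts of the BMP effectors Smad1 and Smad5 had log2FC values of -0.05 and -0.08 (FDR = 0.507 and 0.320 in limma-voom). Without oe-NC 1 the list gave 10 lower and 7 higher (25% and 17.5%), beside 20.7% and 19.4% of all genes tested in that fit.

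Guidance and cell surface signalling molecules were represented by Sema4d, a semaphorin that binds plexin B1, with 46, 45 and 32 counts with oe-AQP1 against 77, 64 and 86 with oe-NC (ratio 0.522), by Sema6b with 417, 436 and 362 counts with oe-AQP1 against 891, 617 and 738 with oe-NC (ratio 0.519) and by Ntn4 with 323, 354 and 352 counts with oe-AQP1 against 638, 601 and 669 with oe-NC (ratio 0.517). Of 39 other listed guidance genes 16 were called lower (41.0%) and 2 higher (5.13%), beside 16.6% and 16% of all genes tested. Srgap3, a GTPase-activating protein of Slit-Robo signalling, had 552, 612 and 565 counts against 905, 825 and 959 in oe-NC (log2FC = -0.71 ± 0.05 SE, limma-voom FDR = 2.42e-06), and Sema4g had 24, 32 and 20 counts against 37, 33 and 44 in oe-NC (log2FC = -0.67 ± 0.21 SE, limma-voom FDR = 0.0372), a call that 8 of the 16 alternative fits lost. Neo1, the netrin receptor neogenin, had 326, 379 and 360 counts against 180, 190 and 213 in oe-NC (log2FC = 0.80 ± 0.08 SE, limma-voom FDR = 3.83e-05), and Plxnc1, a plexin, 266, 297 and 295 counts against 165, 166 and 172 in oe-NC (log2FC = 0.70 ± 0.08 SE, limma-voom FDR = 1.56e-04). Related members outside the list were Epha8, an ephrin receptor (0.560), and Ptprf, the receptor phosphatase LAR (0.409). Notum, an esterase that inactivates Wnt ligands, had 66, 88 and 72 counts with oe-AQP1 against 175, 111 and 133 with oe-NC (ratio 0.515) and was the only member of the Wnt list, where 5 of 36 others were lower and 3 higher, shares of 13.9% and 8.33% that do not exceed those over all genes. Wnt7b had 445, 465 and 468 counts against 847, 584 and 729 in oe-NC (log2FC = -0.71 ± 0.11 SE, limma-voom FDR = 6.08e-04) and the co-receptor Lrp5 1086, 1217 and 1151 counts against 1933, 1482 and 1746 in oe-NC (log2FC = -0.65 ± 0.07 SE, limma-voom FDR = 9.36e-05). Daam1 had 2797, 3137 and 3054 counts against 1863, 1788 and 2085 in oe-NC (log2FC = 0.57 ± 0.04 SE, limma-voom FDR = 2.46e-06) and the receptor Fzd5 694, 817 and 777 counts against 551, 460 and 605 in oe-NC (log2FC = 0.43 ± 0.06 SE, limma-voom FDR = 5.89e-04).

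Channels and transporters included kidney genes. Scnn1a, the alpha subunit of the epithelial sodium channel ENaC, had 297, 336 and 351 counts with oe-AQP1 against 603, 495 and 613 with oe-NC (ratio 0.552). Lrp2, megalin, the endocytic receptor of the proximal tubule brush border, had 342, 353 and 300 counts with oe-AQP1 against 623, 574 and 598 with oe-NC (ratio 0.530). By the rule the groups do not overlap in any member. The lowest control CPM exceeded the highest oe-AQP1 CPM by 1.61 times in Lrp2 and 1.57 times in Scnn1a. Of 20 other renal tubule genes 6 were called lower (30%) and 3 higher (15%), beside 16.6% and 16% of all genes tested. Lcn2, lipocalin 2, had 791, 842 and 777 counts against 1196, 1168 and 1443 in oe-NC (log2FC = -0.73 ± 0.06 SE, limma-voom FDR = 4.74e-06) and Cdh16, kidney-specific cadherin, 2177, 2411 and 2239 counts against 3540, 3014 and 3461 in oe-NC (log2FC = -0.63 ± 0.05 SE, limma-voom FDR = 4.63e-06). Ggt1, a gamma-glutamyltransferase of the brush border, had 258, 304 and 262 counts against 213, 197 and 240 in oe-NC (log2FC = 0.27 ± 0.08 SE, limma-voom FDR = 0.0231), a call lost in 5 of the 16 alternative fits, and Vcam1, described with the adhesion molecules, was on this list too. Among solute carriers, Slc4a1, the chloride/bicarbonate exchanger of red cells and of the collecting duct, had 45, 53 and 38 counts with oe-AQP1 against 80, 87 and 89 with oe-NC (ratio 0.507), and Slc4a5, a sodium bicarbonate cotransporter, 56, 77 and 61 counts with oe-AQP1 against 130, 111 and 133 with oe-NC (ratio 0.496). Of the other 211 solute carriers tested 57 were called lower and 20 higher (27.0% and 9.48%, beside 16.6% and 16% of all genes). The most changed were Slc44a4 with 18, 25 and 28 counts against 56, 33 and 52 in oe-NC (log2FC = -1.04 ± 0.25 SE, limma-voom FDR = 0.00944), Slc16a12 with 476, 579 and 524 counts against 829, 759 and 869 in oe-NC (log2FC = -0.71 ± 0.06 SE, limma-voom FDR = 6.07e-06), Slc38a1 with 2913, 3399 and 3221 counts against 1295, 1260 and 1369 in oe-NC (log2FC = 1.21 ± 0.05 SE, limma-voom FDR = 1.75e-08) and Slc25a22 with 2840, 3245 and 2995 counts against 1475, 1231 and 1407 in oe-NC (log2FC = 1.07 ± 0.05 SE, limma-voom FDR = 1.31e-07). Of 59 other ion channels and pumps 20 were lower and 8 higher (33.9% and 13.6%, beside the same 16.6% and 16%). The lowest calls were Ttyh3 with 141, 144 and 162 counts against 237, 192 and 253 in oe-NC (log2FC = -0.68 ± 0.10 SE, limma-voom FDR = 6.84e-04) and the calcium channel Cacna1g with 1793, 1900 and 1832 counts against 3314, 2381 and 2780 in oe-NC (log2FC = -0.68 ± 0.09 SE, limma-voom FDR = 3.00e-04). The highest were Ttyh1 with 13, 13 and 16 counts against 7, 4 and 2 in oe-NC (log2FC = 1.66 ± 0.44 SE, limma-voom FDR = 0.0152) and the potassium channel Kcnj16 with 13, 17 and 17 counts against 7, 5 and 4 in oe-NC (log2FC = 1.43 ± 0.34 SE, limma-voom FDR = 0.00982), both on few counts. DESeq2 called neither, and Ttyh1 was also not called without oe-AQP1 3 (limma-voom FDR = 0.0554) or without oe-NC 3 (limma-voom FDR = 0.0632, log2FC = 1.17). Car6, a secreted carbonic anhydrase (0.391), Trpm3 (0.510), Stra6, the membrane receptor for retinol (0.531), Mal, a proteolipid of apical transport (0.405), Myo5b, a motor for recycling vesicles (0.454), and Upk3b, a uroplakin (0.426), add to the members at the cell membrane, each given with its ratio.

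Other Lrp genes and Vldlr, relatives of the endocytic receptors Lrp1 and Lrp2, were taken as a comparison. Vldlr, a lipoprotein receptor, had 1314, 1456 and 1326 counts with oe-AQP1 against 1829, 1833 and 2029 with oe-NC (log2FC = -0.55, FDR = 8.92e-06 in limma-voom). Lrp5 and Lrp6 were also called lower (log2FC = -0.65 and -0.30, FDR = 9.36e-05 and 0.00155 in limma-voom). Lrp8 and the chaperone gene Lrpap1 were not called (log2FC = -0.08 and -0.09, FDR = 0.217 and 0.224 in limma-voom). Reps2, an adaptor of endocytosis, was a further member (0.593).

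Scd2 stood in the list of lipid metabolism, where 88 genes outside the members were tested, with a median log2FC of -0.19. Of these, 46 were called lower (52.3%) and 7 higher (7.95%), beside 16.6% and 16% of all genes tested. Scd1, the sister enzyme of Scd2, had 4868, 5254 and 5022 counts with oe-AQP1 against 6138, 5705 and 6948 with oe-NC (log2FC = -0.38, FDR = 2.23e-05 in limma-voom), and because some counts of Scd2 were fractional, reads may have been divided between similar genes. Acox2, a peroxisomal oxidase, had 924, 1000 and 944 counts against 1499, 1373 and 1530 in oe-NC (log2FC = -0.69 ± 0.05 SE, limma-voom FDR = 1.87e-06), and Stard4, a sterol transfer protein, 786, 859 and 822 counts against 1104, 1123 and 1331 in oe-NC (log2FC = -0.60 ± 0.05 SE, limma-voom FDR = 1.95e-05). Sptlc2, of sphingolipid synthesis, had 3556, 3855 and 3636 counts against 2083, 2076 and 2508 in oe-NC (log2FC = 0.66 ± 0.04 SE, limma-voom FDR = 2.14e-06), and the coactivator Ppargc1a 434, 481 and 495 counts against 292, 309 and 340 in oe-NC (log2FC = 0.51 ± 0.07 SE, limma-voom FDR = 5.48e-04). Akr1c18, an aldo-keto reductase that inactivates progesterone, had 33, 56 and 46 counts with oe-AQP1 against 99, 91 and 106 with oe-NC (ratio 0.434), and Akr1b7, another aldo-keto reductase, 128, 112 and 109 counts with oe-AQP1 against 235, 181 and 215 with oe-NC (ratio 0.532). They were the members of the NRF2 and glutathione list, where 25 of 59 others were called lower (42.4%) and 6 higher (10.2%). The lower share of this list varied with the fit: 30.5% with DESeq2, 32.2% with a replicate block and 54.2% without oe-NC 1. All genes tested gave 14%, 16% and 20.7% lower in these 3 fits. Cyp2s1 had 1, 4 and 2 counts against 14, 23 and 23 in oe-NC (log2FC = -3.02 ± 0.48 SE, limma-voom FDR = 9.43e-04) and Mt1, a metallothionein, 1135, 1190 and 1099 counts against 1451, 1675 and 2005 in oe-NC (log2FC = -0.65 ± 0.09 SE, limma-voom FDR = 2.86e-04). Gsta1, a glutathione transferase, had 210, 196 and 200 counts against 55, 60 and 88 in oe-NC (log2FC = 1.51 ± 0.15 SE, limma-voom FDR = 3.91e-05) and Keap1, the inhibitor of NRF2, 1276, 1369 and 1311 counts against 947, 713 and 870 in oe-NC (log2FC = 0.58 ± 0.07 SE, limma-voom FDR = 1.75e-04). Enzymes of other routes were Gbe1, the glycogen branching enzyme (0.579), Sardh, sarcosine dehydrogenase (0.547), Pccb, a subunit of propionyl-CoA carboxylase (0.590), Hpgds, a prostaglandin D synthase (0.534), Sult2b1, a sterol sulfotransferase (0.60), and Phospho1, a phosphatase of mineralizing cells (0.596). Selenbp1 (0.488), Cmbl (0.493) and the lysosomal iduronate sulfatase Ids (0.560) had ratios in the same range.

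St6galnac2, a sialyltransferase, was present in the table under 2 identifiers. The member, ENSMUSG00000110170, had 159, 181 and 156 counts with oe-AQP1 against 322, 218 and 274 with oe-NC after rounding of fractional counts (ratio 0.584), and the other locus had 706, 778 and 735 counts against 901, 827 and 933 in oe-NC (log2FC = -0.34 ± 0.05 SE, limma-voom FDR = 4.90e-04). Reads may have been divided between them, so the size of the difference is uncertain. Among 48 other secretory, glycosylation and heparan sulfate enzymes 9 were called lower, the second locus included, and 3 higher. The lower share of 18.8% is near the 16.6% of all genes tested. Ndst1, of heparan sulfate synthesis, had 3015, 3450 and 3288 counts against 4774, 4147 and 4791 in oe-NC (log2FC = -0.57 ± 0.04 SE, limma-voom FDR = 4.73e-06). Ext1, which elongates heparan sulfate, had 1847, 2017 and 1936 counts against 1277, 1116 and 1357 in oe-NC (log2FC = 0.56 ± 0.04 SE, limma-voom FDR = 5.88e-06), and Fut10, a fucosyltransferase, 529, 591 and 579 counts against 377, 349 and 398 in oe-NC (log2FC = 0.52 ± 0.06 SE, limma-voom FDR = 9.67e-05).

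In cytokine and receptor signalling, Lifr, the receptor of leukemia inhibitory factor, had a ratio of 0.459, while its partner Il6st was only slightly lower (log2FC = -0.12, FDR = 0.0368 in limma-voom) and its ligand Lif was higher (log2FC = 0.34, FDR = 0.00259 in limma-voom). Ccl17, a chemokine that attracts T cells through CCR4, had a ratio of 0.402, and Serpina12, the adipokine vaspin, one of 0.468. Igfbp5, which binds insulin-like growth factors, had 42, 42 and 41 counts with oe-AQP1 against 75, 72 and 103 with oe-NC (ratio 0.483). Of 45 other growth factor and receptor tyrosine kinase genes 17 were called lower and 8 higher. That is 37.8% and 17.8%, beside 16.6% and 16% of all genes tested. Igf2 had 9, 13 and 6 counts against 21, 19 and 21 in oe-NC (log2FC = -1.21 ± 0.31 SE, limma-voom FDR = 0.0129) and Igf1 10, 6 and 4 counts against 11, 17 and 14 in oe-NC (log2FC = -1.16 ± 0.40 SE, limma-voom FDR = 0.0479), calls that 2 and 8 of their 15 alternative fits lost. Btc, betacellulin, had 27, 26 and 33 counts against 5, 7 and 6 in oe-NC (log2FC = 2.10 ± 0.31 SE, limma-voom FDR = 6.13e-04) and Angptl4, an inhibitor of lipoprotein lipase, 7165, 8164 and 7583 counts against 5311, 4481 and 5158 in oe-NC (log2FC = 0.54 ± 0.05 SE, limma-voom FDR = 9.98e-06). Grb10, an adaptor that dampens insulin receptor signals, had a ratio of 0.561.

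Among G protein signalling genes, Rgs11, which speeds up GTP hydrolysis by G proteins, had 61, 80 and 75 counts with oe-AQP1 against 154, 122 and 178 with oe-NC (ratio 0.457), and Arrb1, beta-arrestin 1, 479, 550 and 545 counts with oe-AQP1 against 963, 889 and 1029 with oe-NC (ratio 0.523). Of 71 others 18 were called lower and 10 higher, shares of 25.4% and 14.1% beside 16.6% and 16% of all genes tested. Adcy1, an adenylyl cyclase, had 5, 2 and 1 counts against 16, 21 and 18 in oe-NC (log2FC = -2.85 ± 0.48 SE, limma-voom FDR = 0.00136), and Ptger3, a prostaglandin E receptor, 272, 342 and 295 counts against 400, 423 and 492 in oe-NC (log2FC = -0.61 ± 0.08 SE, limma-voom FDR = 2.85e-04). Grk3, a receptor kinase, had 61, 52 and 58 counts against 0, 3 and 6 in oe-NC (log2FC = 4.59 ± 0.64 SE, limma-voom FDR = 4.09e-04), where oe-NC 1 had no counts and log2FC without it was 3.49, and the bradykinin receptor gene Bdkrb1 19, 15 and 11 counts against 5, 3 and 3 in oe-NC (log2FC = 1.82 ± 0.41 SE, limma-voom FDR = 0.00672). Members outside the list were Gng3, a G protein gamma subunit (0.484), and Gpr4, a proton-sensing receptor (0.50).

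Of the actin and YAP/SRF list only Cnn1, calponin 1, was a member, with 100, 128 and 121 counts with oe-AQP1 against 229, 188 and 195 with oe-NC (ratio 0.544). Of 59 others 33 were called lower and 5 higher, with a median log2FC of -0.20. That is 55.9% and 8.47%, beside 16.6% and 16% of all genes tested. Myl9, a myosin light chain, had 99, 111 and 119 counts against 195, 146 and 167 in oe-NC (log2FC = -0.69 ± 0.13 SE, limma-voom FDR = 0.00236), and Cav1, caveolin 1, 893, 1035 and 954 counts against 1284, 1270 and 1521 in oe-NC (log2FC = -0.57 ± 0.05 SE, limma-voom FDR = 1.51e-05). Gadd45b had 2212, 2563 and 2351 counts against 1461, 1238 and 1374 in oe-NC (log2FC = 0.73 ± 0.05 SE, limma-voom FDR = 4.18e-06), and the receptor Axl 2757, 3098 and 2843 counts against 2295, 1931 and 2168 in oe-NC (log2FC = 0.37 ± 0.05 SE, limma-voom FDR = 4.05e-04). Other cytoskeletal members were Avil, an actin-binding advillin (0.513), Eps8, an actin-capping protein (0.518), Sorbs3, vinexin (0.530), Cdc42bpg, a CDC42-binding kinase (0.538), Mapt, the microtubule protein tau (0.573), Matcap1, a microtubule carboxypeptidase (0.60), and Mybpc2, a myosin-binding protein of muscle (0.594).

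The remaining members had no list and no shared role. They were, with their ratios, Prtn3, proteinase 3 of neutrophils (0.577), Taf7l, a paralogue of a TFIID subunit (0.581), Dclk3, a kinase (0.558), Ncald, a neuronal calcium sensor (0.534), Asb16, a SOCS box protein (0.498), Klhdc8a (0.474), Map3k7cl (0.526), Shisa4 (0.544), Smim24 (0.517), Sh3yl1 (0.575), Ankrd55 (0.566), Mturn (0.583), Depp1 (0.584) and Tmem150a (0.576).

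The place of the protein, which the rule did not use, differed between the members and all well-counted genes, members included. By the cellular component terms deposited with the table, 25 of the 98 annotated members carried extracellular region or extracellular space (25.5%), against 551 of 9703 annotated well-counted genes (5.68%). Collagen-containing extracellular matrix was carried by 11 members, among them Adam19, Col1a1, Col4a3, Col4a4, Col6a1, Col6a2, Pcolce2, Sspo, Tnc and Vwa1 (11.2% against 1.12%). Basement membrane was carried by Col4a3, Col4a4, Itgb4, Ntn4, Tnc and Vwa1 (6.12% against 0.474%). The nucleus was a term of 13.3% of members and 34.8% of well-counted genes. Receptor complex was carried by 7.14% of members and 0.649% of well-counted genes, and integral component of plasma membrane by 11.2% and 2.63%. External side of plasma membrane and apical plasma membrane were each carried by 5.10% of members, against 1.03% and 1.58%. The broader terms plasma membrane and mitochondrion were carried by 14.3% and 11.2% of members and by 14.5% and 12.8% of well-counted genes. These shares are descriptions, since members of one family share terms. Members were also less abundant in oe-NC cells (median 13.2 CPM, against 45.4 CPM of well-counted genes), and no comparison with genes of similar level was made.

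**Figure D4:**
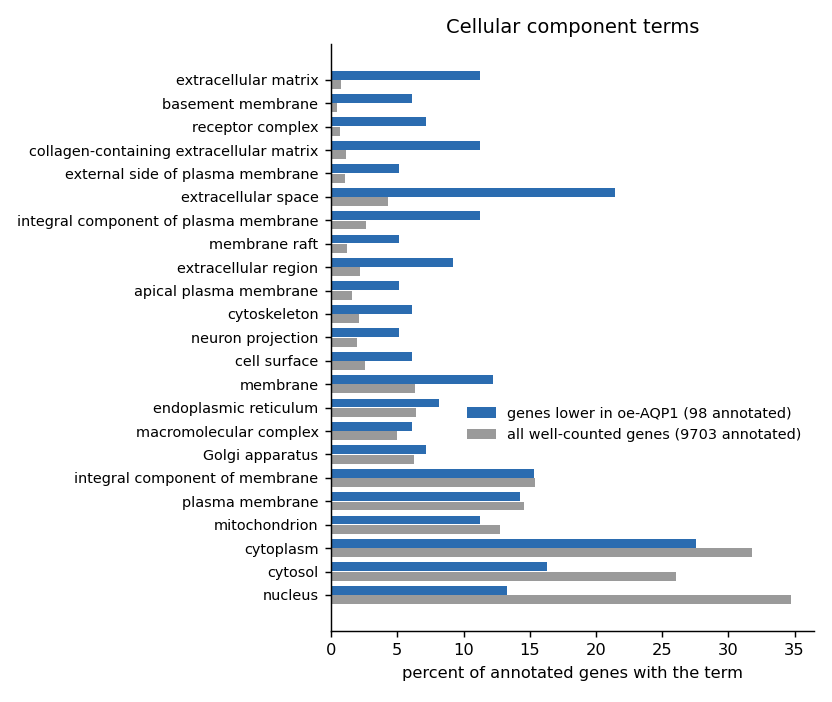
Percent of the 98 annotated members (blue) and of the 9703 annotated well-counted genes (grey) that carry each cellular component term (horizontal), for the terms carried by at least 5 members, ordered by the ratio of both shares. Extracellular matrix, basement membrane, receptor complex and collagen-containing extracellular matrix stand at the top and the nucleus at the bottom.

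The lengths of members and of well-counted genes were alike in the median, where the longest transcript had 4304 bases in the median member and 4414 in the median well-counted gene. They were less abundant, with a median of 13.2 CPM in oe-NC cells against 45.4 CPM. Fractional counts occurred in 24 members (22.9%) and in 42.8% of well-counted genes. Promoter windows had a median GC content of 57.7% in members and 61% in well-counted genes. On the chromosomes 27 members had another member within 1 Mb, in 16 pairs. No such share is at hand for other well-counted genes, so whether members lie closer together than others was not tested. Chromosome 11 held 14 members (1.53% of its well-counted genes) and chromosome 6 held 10 (2.05%). Apart from the collagen pairs, Spata20 and Epn3 lie 3420 bases apart on chromosome 11, and Asb16 and Slc4a1 lie 67782 bases apart on the same chromosome. The well-counted genes around a member within 500 kb had a median log2FC of -0.05, close to the -0.02 of all well-counted genes.

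**Figure D5:**
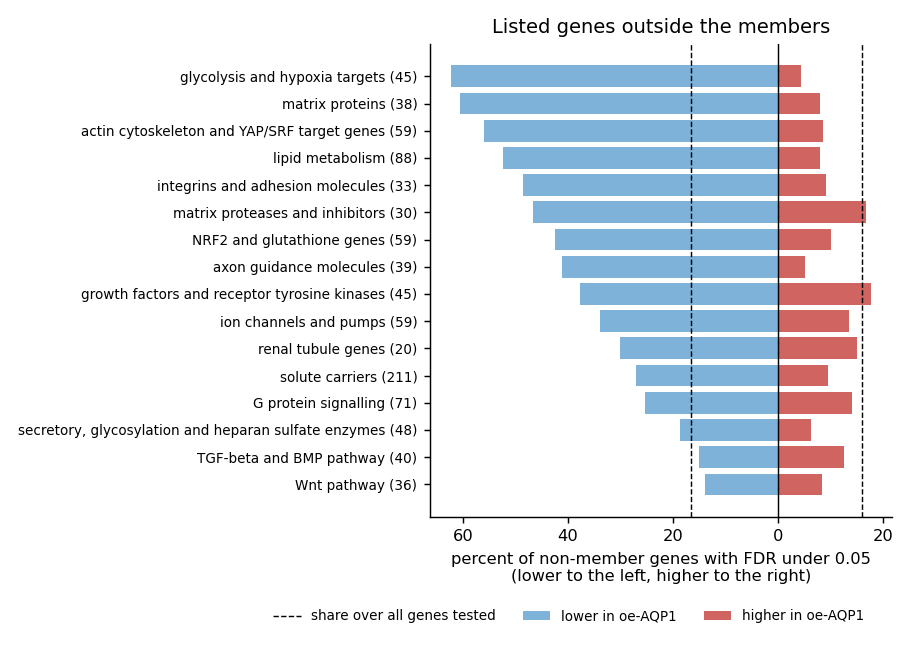
Percent of listed genes outside the members with an FDR under 0.05 in limma-voom, lower in oe-AQP1 to the left and higher to the right, for the 16 lists that hold a member, with the number of genes tested in brackets. The dashed lines mark the shares over all genes tested, 16.6% and 16%, poorly counted genes included. The lower shares exceed the line in 14 lists, most of all for hypoxia and matrix genes, and not for the TGF-beta and BMP or the Wnt list.

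In total 40 members stood in at least 1 of the 30 lists and 65 in none, and 16 lists held a member. Of the 1920 listed genes outside the members, 468 were called lower and 331 higher, beside 2569 and 2481 of all 15522 genes tested (16.6% and 16%). Listed genes as a whole were thus called lower more often than all genes, and the share of a single list should be read beside both. All genes tested include poorly counted ones, and no list share was compared with genes of similar level. With an absolute log2FC above 1 as a further condition 7 were lower and 65 higher. Over all genes tested, members included, this condition called 0.844% lower and 4.39% higher. The 7 cannot be read against the 65 or against that share, since the rule had already moved nearly all well-counted genes with so low a ratio into the members. Without oe-NC 1 the calls were 526 lower and 447 higher. Calls over all genes also rose in that fit, to 3331 lower and 3125 higher of 16085 (20.7% and 19.4%).

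The thresholds cut through a continuum. Just inside the ratio of 0.6 lay Col1a1 (0.598), Sult2b1 (0.60) and Matcap1 (0.60). Sult2b1 had 57, 60 and 51 counts with oe-AQP1 against 96, 78 and 95 with oe-NC, and Matcap1 73, 75 and 67 counts with oe-AQP1 against 105, 111 and 128 with oe-NC. Just outside were Macrod2 with 37, 53 and 36 counts against 56, 46 and 101 in oe-NC (ratio 0.602), Smarcd3 with 34, 45 and 45 counts against 78, 45 and 74 in oe-NC (ratio 0.604) and Cpne5 with 283, 322 and 324 counts against 573, 402 and 502 in oe-NC (ratio 0.604). Just inside the count minimum lay Trpm3 with 22, 31 and 28 counts with oe-AQP1 against 43, 52 and 58 with oe-NC, Smim24 with 27, 38 and 20 counts with oe-AQP1 against 50, 41 and 67 with oe-NC and Klhdc8a with 24, 25 and 30 counts with oe-AQP1 against 61, 58 and 39 with oe-NC. Just outside it were Mybpc3 with 18, 36 and 34 counts against 55, 39 and 55 in oe-NC (ratio 0.564), Gpr137c with 15, 30 and 20 counts against 36, 46 and 67 in oe-NC (ratio 0.417) and Slc44a4 with a mean oe-NC count of 47. One gene, 1810049J17Rik, passed the ratio but had overlapping groups, with 47, 38 and 31 counts against 214, 36 and 51 in oe-NC (ratio 0.372).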

How the data were processed

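Total RNA from 6 RENCA cell samples (3 oe-AQP1, 3 oe-NC) was sequenced paired-end after TruSeq library preparation. The authors deposited expected counts per gene, estimated read counts that need not be whole, without scaling between samples. The submitters' processing notes name fastp, HISAT2, featureCounts and Subread with the builds GRCm38 and mm10, while the study's methods name GRCm39. The role of each tool and the strand setting are not given in the sources used here. The 2 deposited columns of group means were not used. Totals were 18385714 to 21920899 counts per sample, which limits the precision for members near 50 counts.

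Groups and sample numbers were taken from the labels. CPM was the count over the column total. For log2FC and FDR the expected counts were rounded, filtered with filterByExpr (15522 genes kept), scaled by TMM and fitted by limma-voom (limma 3.58.1, edgeR 4.0.16, R 4.3.3) over all genes, after the study's methods. DESeq2 1.42.0 and edgeR's quasi-likelihood test, other scalings and filters, sample quality weights, a replicate block, unrounded counts and leaving out each sample were alternatives. limma-voom, with and without quality weights, edgeR and DESeq2 were tested on simulated data. Members and gene lists were chosen with earlier results of these data known, and the roles in which the text groups members were set after their values were seen. All but a few members were named, as some items are not reported here. Values in every sample were given for the 12 lowest ratios, the 8 highest oe-NC levels, members of a list with at least 2 members, and the genes next to the thresholds, and some further members and related genes were added after their values were seen. Outside the members, the 2 lowest and 2 highest called genes of each list with a member were named. Gene positions are from GENCODE M39 (78168 of 78298 identifiers matched) and promoters from RefSeq on GRCm38.p6. Motifs were searched as fixed letters on both strands. No set test was run and no test was made of the members themselves.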

Additional observations from a re-analysis of the deposited data

How the results depend on the processing

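The number of members depended most on the ratio allowed: 38 genes met the rule with a ratio of at most 0.5 and 300 with at most 0.7, against 105. Other scalings, count minimums, whole counts only and overlap allowed gave 76 to 152. Leaving out 1 sample gave 102 to 114 genes, of which 90 to 101 were members, and the median log2FC of the members lay between -0.96 (without oe-AQP1 2) and -0.91 (without oe-NC 1). None of 1680 member values changed sign in any alternative fit, and the highest was -0.57. The rule, which placed every oe-AQP1 CPM below every control, had largely fixed that sign in advance, so it is no measure of stability. With an absolute log2FC above 1 required, the listed genes outside the members called lower fell in number from 468 to 7 and those called higher from 331 to 65. The first of these falls is set in part by the rule, which had taken nearly all well-counted genes of so low a ratio as members. In the other fits on all samples they numbered 417 to 531 and 257 to 442, and with 1 sample left out 341 to 526 and 252 to 447. Of 998 values of 63 named listed genes 0 changed sign, and 40 values of 9 genes (Fbn1, Timp3, Igf2, Igf1, Sema4g, Kcnj16, Ttyh1, Fbp2, Ggt1) were no longer called. The labels number the samples in both groups, but deviations of same-numbered samples correlated at 0.015, -0.020 and -0.073, so they were not treated as pairs. With a replicate block 452 listed genes were lower and 325 higher, and the members' median was -0.93. Members near 50 counts are limited by depth.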
